A study of Danio rerio with 18 samples.

Results

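The cardiac myosin genes of zebrafish were followed in heart tissue 0, 6 and 9 days after amputation (dpa, days post amputation), by the rule that a gene belonged to the set if its symbol was 1 of 7 listed names: myl7, myh6, vmhc, vmhcl, cmlc1, myh7 and myh7l. Of these, 5 were found among the 15268 genes of the expression table, namely the light chains myl7 and cmlc1 and the heavy chains myh6, myh7 and myh7l. The names vmhc and vmhcl head no row. RefSeq lists them as older names of myh7 and myh7l, so the 7 names stand for 5 genes and all of them are described here.

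The fish were TAB zebrafish, hybrids of the AB and Tübingen lines, for which the labels name no transgene or drug, and all groups come from hearts whose ventricular apex was resected. The mRNA libraries fall into 3 groups of 2 biological replicates: tissue at 0 dpa, newly regenerated tissue at 6 dpa and newly regenerated tissue at 9 dpa. Neither the number of hearts pooled into a library nor the age of the fish is given in the sources used here, and how much uninjured ventricle or atrium each piece of tissue held is not stated. The p-values below therefore measure only the spread between these libraries.

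Myosin is the motor of the thick filament. A pair of heavy chains carries the heads that pull on actin, and each head holds an essential and a regulatory light chain. In the zebrafish heart both chambers use the light chains cmlc1 (essential) and myl7 (regulatory, also called cmlc2), whereas the heavy chains differ between chambers. Myh6, long known as amhc, is the atrial heavy chain, and myh7, long known as vmhc, is a ventricular one. The gene myh7l, or vmhcl, encodes a heavy chain closely related to myh7. Amhc and vmhc are for this reason the usual markers of atrial and ventricular muscle in zebrafish. In the current RefSeq zebrafish assembly (GRCz12tu) myh7 and myh7l are direct neighbours, and the other 3 genes each lie elsewhere. How reads that fit both myh7 and myh7l were shared out is not stated, so the split between this pair is uncertain. RefSeq also gives smyhc3, a slow skeletal heavy chain with its own row in the table, as an older name of myh7, and that row held at most 0.357 FPKM in any library.

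Values are FPKM, the number of fragments per kilobase of a transcript relative to all mapped fragments, as the authors deposited them. FPKM is divided by transcript length, so levels of different genes can be set side by side, but the reads behind a value are unknown and no counting interval is given. The summed FPKM of a library lay between 803421 and 1330111. A gene was called when it met the study's 3 criteria in limma on log2(FPKM + 1): P under 0.05, a fold change of at least 1.5 and an average of at least 3 FPKM in a compared group. All 5 myosin genes passed the FPKM criterion in every time point, so none was lost or kept through 1 group. Benjamini-Hochberg adjusted p-values are over all genes tested in a comparison, 9275 for 6 dpa against 0 dpa, 9015 for 9 dpa against 0 dpa and 9157 for 9 dpa against 6 dpa. Fold changes are differences on the log2(FPKM + 1) scale, given with the standard error (SE) of the fit.

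The replicates at 0 dpa stood apart from each other. Summed FPKM of 26 macrophage and neutrophil genes was 1177 in replicate 1 and 7171 in replicate 2 at 0 dpa, against 3912 and 3274 in the 6 dpa libraries and 1912 and 1944 in the 9 dpa libraries, and 0 of 24 fitted genes of that list were higher in replicate 1 at 0 dpa. The working myocardium, 29 heart muscle genes other than myosin, went the other way, with 26 of 27 fitted genes higher in replicate 1 at 0 dpa and a median log2 ratio of 0.85. All 5 myosin genes were higher in replicate 1 there too. Differences of the myosin genes from 0 dpa are therefore mostly also given without a replicate of 0 dpa, here or in the closing sections. Counts over the gene lists are given in that way only in part. Those of the skeletal, smooth muscle and non-muscle, epicardium and fibroblast, epidermis and red blood cell lists changed as well without a replicate of 0 dpa, although this is not shown. Replicate 2 of 6 dpa stood apart in epidermis genes, with a median log2 ratio of -3.43 between replicates 1 and 2 over 14 fitted genes. The haemoglobin gene hbaa1, with a mean of 52913 FPKM at 0 dpa, was listed at 0 in both 6 dpa libraries, and ba1, with 22733 FPKM at 0 dpa, in all libraries of 6 and 9 dpa. Such zeros can be failed estimates, since hbaa2 was at 4216 to 7889 FPKM and hbba2 at 5901 to 12146 FPKM over the 6 libraries, and no change is read from them. FPKM is a share of the library, so levels are also given after scaling to the working myocardium.

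The light chains were among the most abundant transcripts of every library. The regulatory light chain myl7 had 30405 and 17283 FPKM at 0 dpa, 13278 and 14030.5 FPKM at 6 dpa, and 18843 and 17816 FPKM at 9 dpa. It ranked between 3 and 6 among all genes of a library. Both libraries of 6 dpa were below both of 0 dpa, and both of 9 dpa were above both of 6 dpa, while 9 and 0 dpa overlapped.

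The essential light chain cmlc1 had 28062 and 9503 FPKM at 0 dpa, 13541 and 8650.2 FPKM at 6 dpa, and 21555 and 11541 FPKM at 9 dpa. Its rank in a library was between 3 and 10. No pair of time points was separated for cmlc1. Its replicate 1 exceeded replicate 2 at every time point, with log2 gaps of 1.56, 0.65 and 0.90 for 0, 6 and 9 dpa. For myl7 the same gaps were 0.81, -0.08 and 0.08, so the 2 light chains differed in how far their replicates lay apart.

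Among the heavy chains the most abundant was myh7l, the ventricular-like chain. It had 3109.7 and 1784 FPKM at 0 dpa, 1854 and 1503 FPKM at 6 dpa, and 2511 and 2369 FPKM at 9 dpa. The values at 9 dpa were close together and above both values at 6 dpa, and the values at 0 dpa overlapped with those of both later time points.

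The atrial heavy chain myh6 had 303 and 180.4 FPKM at 0 dpa, 133 and 80.9 FPKM at 6 dpa, and 207 and 83.6 FPKM at 9 dpa. Both libraries of 6 dpa lay below both of 0 dpa, but 1 library of 9 dpa lay between the values of 0 dpa. Replicate 1 was higher at each time point, with log2 gaps of 0.75, 0.72 and 1.31 at 0, 6 and 9 dpa.

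The ventricular heavy chain myh7 had 119 and 66.1 FPKM at 0 dpa, 123 and 71.4 FPKM at 6 dpa, and 219 and 142 FPKM at 9 dpa. Both libraries of 9 dpa were above all 4 others, and 6 and 0 dpa overlapped almost completely. Replicate 1 again exceeded replicate 2 at each time point. Across all fitted genes, 66.9% at 0 dpa, 63.8% at 6 dpa and 65.9% at 9 dpa were higher in replicate 1, and for myosin it was 5, 4 and 5 of 5 genes.

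**Figure D1:**
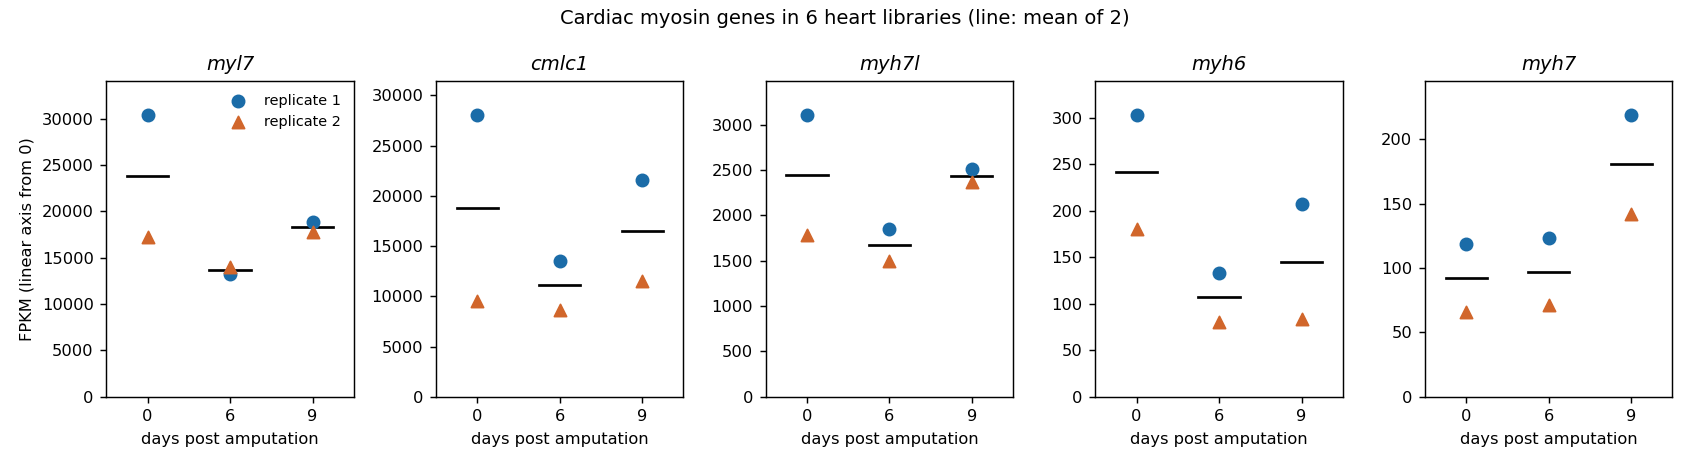
FPKM of the 5 cardiac myosin genes in the 6 mRNA libraries (y axis, linear from 0, a separate scale for each gene) at 0, 6 and 9 dpa (x axis), with circles for replicate 1, triangles for replicate 2 and a line at the mean of 2. The libraries of 6 dpa sit below those of 0 dpa for myl7 and myh6, those of 9 dpa sit above all others for myh7, and cmlc1 has widely separated replicates at every time point.

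By mean over the 6 libraries the order was myl7 (18609 ± 6180.3 FPKM, SD, n = 6), cmlc1 (15475 ± 7705), myh7l (2189 ± 588), myh6 (165 ± 84.7) and myh7 (123 ± 55.6). The neighbours myl7 and cmlc1 overlapped, and so did myh6 and myh7, whose order turned round between time points. Between cmlc1 and myh7l, and between myh7l and myh6, the ranges of the 6 libraries did not overlap.

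The 5 genes together took 4.66 and 3.15% of all FPKM in the 0 dpa libraries, 3.43 and 3.03% in those of 6 dpa and 4.10 and 3.34% in those of 9 dpa. Nearly all of this came from the light chains, which had between 11.3 and 16.6 times the summed FPKM of the 3 heavy chains. Heavy chains made up between 0.206 and 0.278% of a library. Within the heavy chains, myh7l accounted for 85.5 to 91.3%, with no separation between time points. The share of myh6 was 8.59 and 8.88% of heavy chain FPKM at 0 dpa, 6.31 and 4.89% in the 6 dpa libraries, and 7.06 and 3.22% in the 9 dpa libraries. The share of myh7 was 3.36 and 3.25% in the 0 dpa libraries, 5.83 and 4.32% in the 6 dpa libraries, and 7.45 and 5.47% in the 9 dpa libraries. Both libraries of 0 dpa thus had more atrial and less ventricular myh7 chain, as a share of heavy chain FPKM, than any later library, although their absolute FPKM differed widely.

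At 6 dpa against 0 dpa, the question was whether contractile transcripts change in the early regenerate. The regulatory light chain myl7 fell to 13654 ± 532 FPKM at 6 dpa, against 23844 ± 9279 FPKM at 0 dpa (SD, n = 2 each). Its log2 fold change of -0.75 (SE 0.30, 95% interval -1.45 to -0.04, limma) met the 3 criteria, with a Benjamini-Hochberg adjusted p of 0.296. Without replicate 1 of 0 dpa the value was -0.34 and the call was lost, and without replicate 2 of 0 dpa it was -1.16 with an adjusted p of 0.0311. The size of the difference in myl7 therefore depended on which library of 0 dpa was used.

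The atrial chain myh6 had a larger difference with a wider spread, 107 ± 37.0 FPKM at 6 dpa against 242 ± 86.8 FPKM at 0 dpa. Its log2 fold change was -1.16 (SE 0.50, 95% interval -2.33 to 0.00185, limma adjusted p = 0.322), just outside the P criterion. It was -0.79 without replicate 1 and -1.54 without replicate 2 of 0 dpa. Over the deposited values and 16 alternatives myh6 was called in 8 of 17 fits and myl7 in 3 of 17, with log2 fold changes of -1.54 to -0.67 for myh6 and -1.16 to -0.25 for myl7.

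The other 3 genes did not pass. For cmlc1 the log2 fold change was -0.59 (SE 0.54, limma adjusted p = 0.635), and it was 0.19 without replicate 1 of 0 dpa. For myh7l it was -0.50 (SE 0.34, adjusted p = 0.520), with -0.10 without replicate 1 of 0 dpa and -0.90, which was called, without replicate 2. For myh7 it was 0.08 (SE 0.43, 95% interval -0.91 to 1.07, adjusted p = 0.940), an interval that leaves room for a change of nearly 1 on the log2 scale in either direction.

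In all, 1 of 5 myosin genes was called at 6 dpa against 0 dpa, beside 15.4% of all genes tested (7.86% higher and 7.51% lower). By the adjusted p-value 0 of 5 passed, beside 0.712% of all genes, and 1 of 5 had an unadjusted P under 0.05. The libraries of the 2 time points did not overlap, and were lower at 6 dpa, for 2 of 5, beside 22.8% of all genes (22.9% had both libraries higher). With 5 genes, 1 call is near the background. The median log2 fold change was -0.59 for the 5 genes and -0.0028 for all genes.

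At 9 dpa against 0 dpa, the question was whether expression at the later stage had left the starting level. The ventricular chain myh7 averaged 180.5 ± 54.3 FPKM at 9 dpa and 92.4 ± 37.2 FPKM at 0 dpa (SD, n = 2 each). Its log2 fold change of 0.98 (SE 0.43, 95% interval -0.0035 to 1.97, limma adjusted p = 0.393) missed the P criterion narrowly. It was 1.40 without replicate 1 and 0.57 without replicate 2 of 0 dpa, and 0.67 without replicate 1 and 1.29 without replicate 2 of 9 dpa. The difference was above 0 in all 17 fits, at 0.57 to 1.40. These fits, like those counted for myh6 and myl7 above, reuse the same libraries and are not separate evidence.

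The atrial chain myh6 averaged 145 ± 87.5 FPKM at 9 dpa and 242 ± 86.8 FPKM at 0 dpa. Its log2 fold change was -0.82 (SE 0.50, 95% interval -1.99 to 0.34, limma adjusted p = 0.555). Replicate 2 of 9 dpa carried most of it, since the value was -0.17 without that library and -1.47 without replicate 1 of 9 dpa.

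The remaining chains were not called. Myl7 had a log2 fold change of -0.32 (SE 0.30, limma adjusted p = 0.713), cmlc1 of -0.05 (SE 0.54, adjusted p = 0.980) and myh7l of 0.05 (SE 0.34, adjusted p = 0.971). For myh7l the means were 2440.4 ± 100.5 FPKM at 9 dpa and 2447 ± 937 FPKM at 0 dpa, with a 95% interval of -0.73 to 0.83 for the difference. Such intervals do not show that the levels were alike.

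Of the 5 genes, 0 were called at 9 dpa against 0 dpa by the 3 criteria, beside 12.5% of all genes tested (6.82% higher and 5.72% lower), and 0 by the adjusted p-value, beside 0.366%. With limma, 0 of 5 had an unadjusted P under 0.05. Libraries did not overlap for 1 of 5 genes, myh7, which was higher at 9 dpa, beside 20.2% of all genes (20.9% had both libraries lower).

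At 9 dpa against 6 dpa all 5 genes had positive differences, with a median log2 fold change of 0.54 beside -0.01 for all genes. The largest was that of myh7, at 0.90 (SE 0.43, 95% interval -0.08 to 1.89, limma). It was followed by 0.55 (SE 0.34) for myh7l, 0.54 (SE 0.54) for cmlc1, 0.42 (SE 0.30) for myl7 and 0.34 (SE 0.50) for myh6, and the adjusted p was 1.00 for each of the 5. By the 3 criteria 0 of 5 were called, beside 3.41% of all genes (1.99% higher and 1.42% lower), by the adjusted p-value 0, beside 0.0328%, and 0 had an unadjusted P under 0.05. Both libraries of 9 dpa were above both of 6 dpa for 3 of 5 genes, namely myl7, myh7l and myh7, beside 18.4% of all genes (18.1% had both libraries lower). The comparisons share libraries, so the values at 0, 6 and 9 dpa are 1 pattern seen from 3 sides rather than separate evidence.

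Ratios between genes of the same library do not depend on how libraries are scaled. The ratio of the atrial chain myh6 to the ventricular chain myh7 leaves out myh7l, which held 85.5 to 91.3% of heavy chain FPKM. It therefore does not compare all atrial with all ventricular myosin. Its values were 2.55 and 2.73 in the 0 dpa libraries, 1.08 and 1.13 in those of 6 dpa, and 0.947 and 0.588 in those of 9 dpa. On the log2(FPKM + 1) scale these are 1.35 and 1.44, 0.11 and 0.18, and -0.08 and -0.76. The replicates lay close together at 0 and 6 dpa, including the replicates of 0 dpa that differed so widely in FPKM, and the libraries of the 3 time points did not overlap. How many other gene pairs separated in this way, for this ratio and those below, was not counted. For single genes, 22.9% were higher and 22.8% lower without overlap at 6 dpa against 0 dpa.

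The mean log2 ratio of myh6 to myh7 was 0.14 ± 0.04 at 6 dpa against 1.39 ± 0.06 at 0 dpa (SD, n = 2 each), a difference of -1.25. It was -0.42 ± 0.48 at 9 dpa, a difference of -1.81 against 0 dpa and of -0.56 against 6 dpa. The exact two-sided permutation test gave p = 0.333 for each of these comparisons, which is the smallest p that 2 libraries against 2 can give. In all, 4 ratios were compared over 3 comparisons each, and an adjustment over them could only raise these p-values. The difference between 6 and 0 dpa stayed between -1.29 and -1.20 with any 1 library left out, and that between 9 and 0 dpa between -2.15 and -1.47. The difference between 9 and 6 dpa was -0.90 without replicate 1 and -0.22 without replicate 2 of 9 dpa.

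The ratio of myh6 to myh7l had log2 values of -3.35 and -3.30 in the 0 dpa libraries, -3.79 and -4.20 in the 6 dpa libraries, and -3.59 and -4.81 in the 9 dpa libraries. Both later time points lay below 0 dpa, with differences of -0.67 for 6 dpa and -0.87 for 9 dpa (exact permutation p = 0.333 each), and they overlapped with each other. The ratio of myh7 to myh7l had log2 values of -4.70 and -4.73 in the 0 dpa libraries, -3.90 and -4.38 in the 6 dpa libraries, and -3.51 and -4.05 in the 9 dpa libraries. It was higher at 6 dpa by 0.58 and at 9 dpa by 0.93 than at 0 dpa, without overlap (exact permutation p = 0.333 each), and 9 and 6 dpa overlapped. The myh7 and myh7l values, and so the ratio of myh6 to myh7 as well, carry the uncertainty about shared reads noted above. Myh7 had between 0.0370 and 0.0872 times the FPKM of myh7l, so a small error in the split would weigh more on myh7.

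For the light chains, the ratio of cmlc1 to myl7 had log2 values of -0.12 and -0.86 in the 0 dpa libraries, 0.03 and -0.70 in the 6 dpa libraries, and 0.19 and -0.63 in the 9 dpa libraries. These overlapped between all time points, with differences of 0.15, 0.27 and 0.12 for 6 against 0, 9 against 0 and 9 against 6 dpa (exact permutation p = 0.667 each). The replicates, not the time points, separated this ratio: replicate 1 was between -0.12 and 0.19 and replicate 2 between -0.86 and -0.63.

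**Figure D2:**
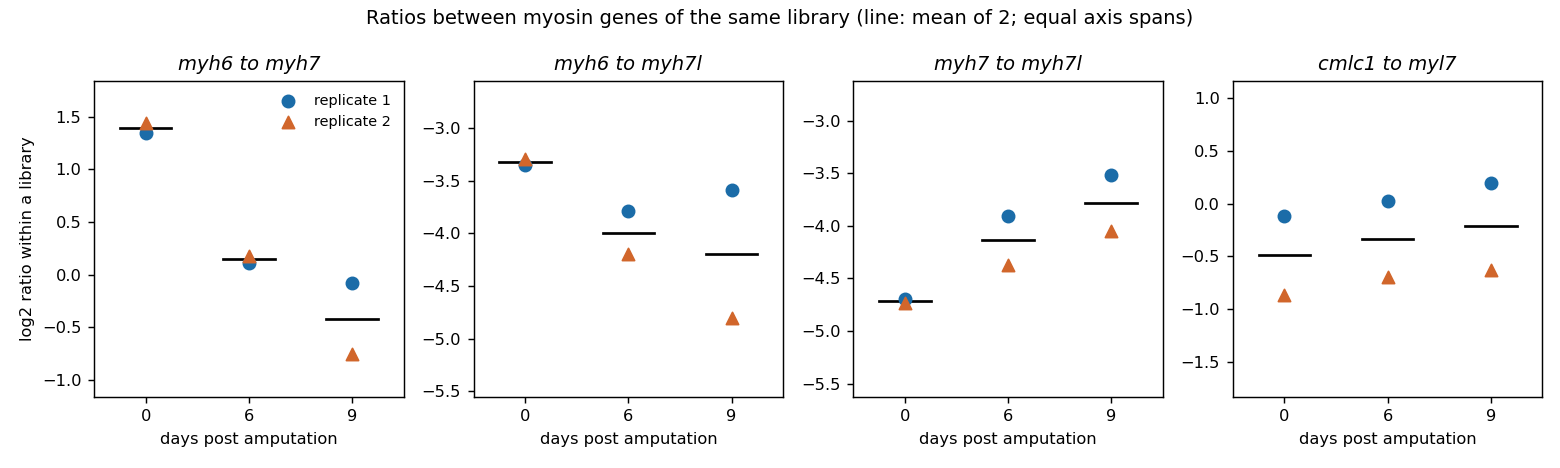
Log2 ratio of FPKM + 1 between myosin genes of the same library (y axis, equal spans) at 0, 6 and 9 dpa (x axis), with circles for replicate 1, triangles for replicate 2 and a line at the mean of 2. The ratio of myh6 to myh7 is 1.39 on average at 0 dpa, 0.14 at 6 dpa and -0.42 at 9 dpa without overlap, while cmlc1 to myl7 splits by replicate at every time point. The share of other gene pairs without overlap was not counted, and how reads shared by myh7 and myh7l were split is not stated.

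The tissue carried the other transcripts of heart muscle. Cardiac actin actc1a, the thin filament partner of myosin, had 22577 and 11007 FPKM at 0 dpa, 12752 and 11310.1 FPKM at 6 dpa, and 16596 and 13756 FPKM at 9 dpa. Of 27 working myocardium genes tested, 6 fell and 0 rose at 6 dpa against 0 dpa, with a median log2 fold change of -0.41, and 23 were below 0. For 9 dpa against 0 dpa 2 of 26 fell, 0 rose and the median was 0.03, and at 9 dpa against 6 dpa 1 of 27 rose, 0 fell, 25 were above 0 and the median was 0.44. Without replicate 1 of 0 dpa, 3 fell and 2 rose at 6 dpa and 2 fell and 10 rose at 9 dpa, and without replicate 2 of 0 dpa 15 fell at 6 dpa and 7 at 9 dpa. The genes that fell at 9 dpa were the Z-disc genes tcap (150 against 611 FPKM, log2 fold change -2.09) and myoz2b (114 against 264 FPKM, -1.22), and the call of myoz2b was lost without replicate 1 of 0 dpa (-0.86) or replicate 2 of 9 dpa (-0.84). The gene that rose against 6 dpa was csrp3 (593 against 332 FPKM, 0.85), which was called in 3 of 6 fits with 1 library left out, and 8 of 27 rose when either replicate of 0 dpa was left out. The second most abundant gene of the list, the tropomyosin tpm4a, was not called in any comparison.

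The myosin genes had medians of the same sign as the working myocardium at 6 dpa against 0 dpa and at 9 dpa against 6 dpa. In bulk tissue fewer muscle cells and less RNA per muscle cell cannot be told apart.

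Scaling each library to the working myocardium sets the myosin genes against the rest of the muscle. Each of 25 of these genes was first expressed as a log2 ratio to its own mean log2 FPKM over all libraries. The median of these ratios within a library gave its factor. On the log2 scale the factor was 0.61 and -0.32 in the 0 dpa libraries, and -0.23 and -0.47 in the 6 dpa libraries. The 9 dpa libraries had 0.33 and 0.04. This scaling put the median log2 fold change of all genes at 0.46, -0.07 and -0.51 in the comparisons of 6 with 0, 9 with 0 and 9 with 6 dpa. It also turned the calls of all genes to 1827 higher and 194 lower at 6 dpa against 0 dpa, beside 729 and 697 with FPKM as deposited, and to 19 higher and 846 lower at 9 dpa against 6 dpa, beside 182 and 130. Values after scaling are therefore relative to muscle and not to the tissue.

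Relative to muscle, myh7l was nearly level, at 2032 and 2219.9 in the 0 dpa libraries, 2179 and 2082 in the 6 dpa libraries, and 2001 and 2312 in the 9 dpa libraries. Its log2 fold changes were 0.00386 at 6 dpa and 0.02 at 9 dpa against 0 dpa (SE 0.19 each). Myl7 was at 19873 and 21501 in the 0 dpa libraries, 15608 and 19432 in the 6 dpa libraries, and 15014 and 17385 in the 9 dpa libraries, with log2 fold changes of -0.25 and -0.36 at 6 and 9 dpa against 0 dpa (SE 0.17 each). The call of myl7 at 6 dpa was lost under this scaling. For cmlc1 they were -0.09 and -0.08 (SE 0.29 each).

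For the heavy chains myh6 and myh7, scaling left the differences against 0 dpa on the same side. Relative to muscle, myh7 was at 77.6 and 82.2 in the 0 dpa libraries, 145 and 98.9 in the 6 dpa libraries, and 174 and 139 in the 9 dpa libraries, and every later library was above both of 0 dpa. The log2 fold change of myh7 was then 0.58 for 6 dpa against 0 dpa (SE 0.29, limma adjusted p = 0.295). For 9 dpa against 0 dpa it was 0.95 (SE 0.29, limma adjusted p = 0.377), which met the 3 criteria. Under this scaling 789 of 8821 genes tested met them at 9 dpa against 0 dpa. The median log2 fold change of all genes was 0.46 at 6 dpa and -0.07 at 9 dpa, so the 0.58 of myh7 lay near the typical gene. Relative to muscle, myh6 was at 198 and 224 in the 0 dpa libraries, 157 and 112 in the 6 dpa libraries, and 165 and 81.6 in the 9 dpa libraries, with every later library below both of 0 dpa. Its log2 fold changes were -0.67 at 6 dpa (SE 0.38, limma adjusted p = 0.340) and -0.86 at 9 dpa (SE 0.38, adjusted p = 0.591), and neither was called. How many of all genes had libraries without overlap under this scaling was not counted, so the separations of myh7 and myh6 are descriptions.

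**Figure D3:**
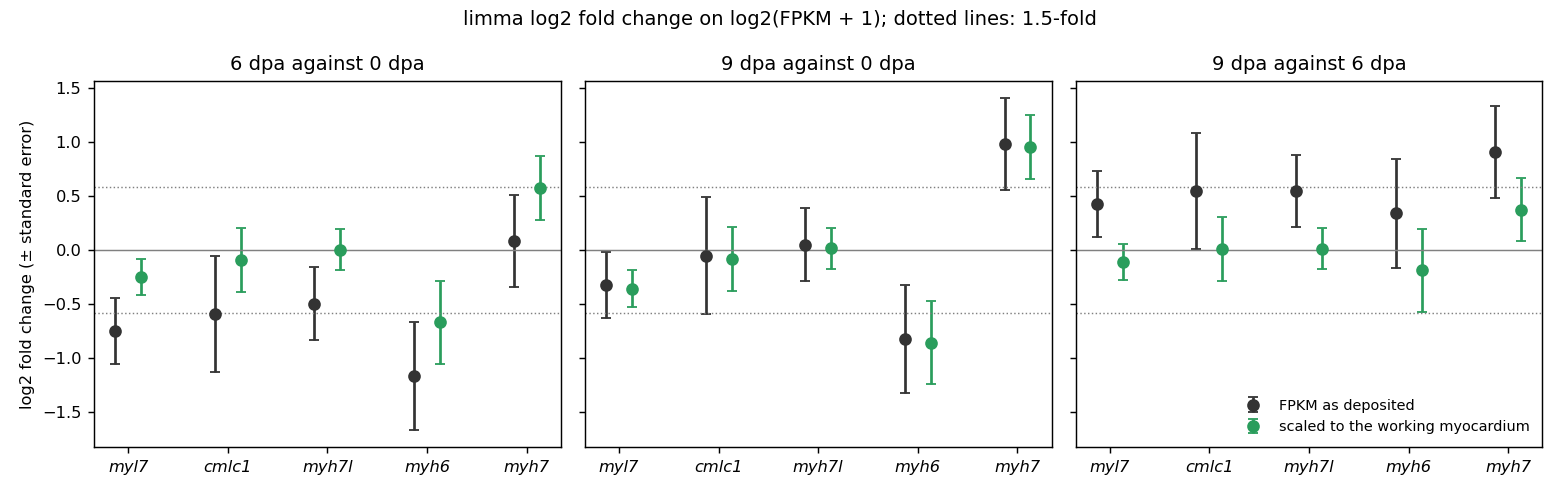
Log2 fold change on log2(FPKM + 1) from limma (y axis) of the 5 myosin genes (x axis) in the 3 comparisons, with bars of 1 standard error, black for FPKM as deposited and green after scaling to the working myocardium, and dotted lines at 1.5-fold. After scaling, myh7l is at 0.00386 and 0.02 against 0 dpa, myh7 at 0.58 and 0.95, and myh6 at -0.67 and -0.86.

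Other parts of the thick filament were present at lower levels. The heart's myosin-binding protein mybpc3 had 1195 and 522 FPKM at 0 dpa, 689 and 566 FPKM at 6 dpa, and 923 and 749.7 FPKM at 9 dpa. The M-band protein myom2a, which ties thick filaments together, had between 88.6 and 169.8 FPKM. Of 14 such genes in the table, 8 were tested at 6 dpa against 0 dpa, of which 1 rose and 1 fell, with a median log2 fold change of -0.28. The cardiac myosin light chain kinase mylk3 phosphorylates the regulatory light chain in the heart. It had 103 and 100.3 FPKM at 0 dpa, 61.3 and 43.7 FPKM at 6 dpa, and 72.7 and 71.0 FPKM at 9 dpa. It fell at 6 dpa against 0 dpa (log2 fold change -0.96, SE 0.29, limma adjusted p = 0.174), with both replicates of 0 dpa nearly equal, but was not called without replicate 2 of 6 dpa (-0.72). The gene that rose was mybpc1, a binding protein of slow skeletal muscle, which averaged 3.34 FPKM at 6 dpa and 0.993 FPKM at 0 dpa (log2 fold change 1.11), passed the FPKM criterion only through 6 dpa, and was called in 3 of 5 fits with 1 library left out in which it was tested. Without replicate 2 of 0 dpa 3 of 8 genes fell, and without replicate 2 of 6 dpa 0 of 7 were called. At 9 dpa 0 of 7 genes against 0 dpa and 0 of 8 against 6 dpa were called, with medians of 0.07 and 0.22.

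The light chains among these other thick filament genes were nearly missing. Myl4, the atrial essential light chain of mammals, was at 0.168 to 2.26 FPKM, myl2b at most at 0.0741 FPKM and zgc:163073, which RefSeq also lists as myl3, at most at 0.129 FPKM.

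Genes of myosin folding and turnover included larger log2 fold changes than those of myosin itself. Of 11 tested, 1 rose and 4 fell at 6 dpa against 0 dpa, and likewise at 9 dpa against 0 dpa, while at 9 dpa against 6 dpa 0 of 10 were called. The medians were -0.29, 0.03 and 0.36. Of the 11 genes, 10 averaged at least 3 FPKM at both time points of each comparison with 0 dpa, and of these 1 rose and 3 fell. The called genes are named here because of their values. Unc45b, the muscle chaperone that folds the myosin head, had 74.0 and 49.9 FPKM at 0 dpa, 21.9 and 19.0 FPKM at 6 dpa, and 30.1 and 22.8 FPKM at 9 dpa. It fell at 6 dpa (log2 fold change -1.53, SE 0.30, limma adjusted p = 0.0744) and at 9 dpa against 0 dpa (-1.18, adjusted p = 0.188), and all later libraries lay below both of 0 dpa.

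Other chaperones of the list fell as well, hsp90aa1.1 with log2 fold changes of -2.03 and -1.97 and hsp90aa1.2 with -1.92 and -2.37 at 6 and 9 dpa against 0 dpa. The small heat shock protein cryabb fell with -2.62 and -2.65. It averaged 14.2 FPKM at 0 dpa and 1.63 FPKM at 6 dpa, with 2.40 and 0.701 FPKM in the 9 dpa libraries. Cryabb could thus be tested only because it was high at 0 dpa, and its calls are a description. Each call of unc45b, these 3 genes and trim55a was kept in 6 of 6 fits with 1 library left out. Without replicate 1 of 0 dpa the list had 3 genes that rose at 6 dpa and 5 that rose at 9 dpa, and without replicate 2 of 0 dpa 6 fell at 6 dpa. The gene that rose in the fit of all libraries was trim55a, a ubiquitin ligase of the sarcomere. It had 4.09 and 4.73 FPKM at 0 dpa, 13.8 and 17.8 FPKM at 6 dpa, and 23.0 and 18.7 FPKM at 9 dpa, with log2 fold changes of 1.63 (SE 0.25, limma adjusted p = 0.0391) and 2.01 (SE 0.25, adjusted p = 0.0258) against 0 dpa. The most abundant genes of the list, hspb1 with 1116 to 2403 FPKM and trim63a with 124 to 333 FPKM, were not called in any comparison.

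**Figure D4:**
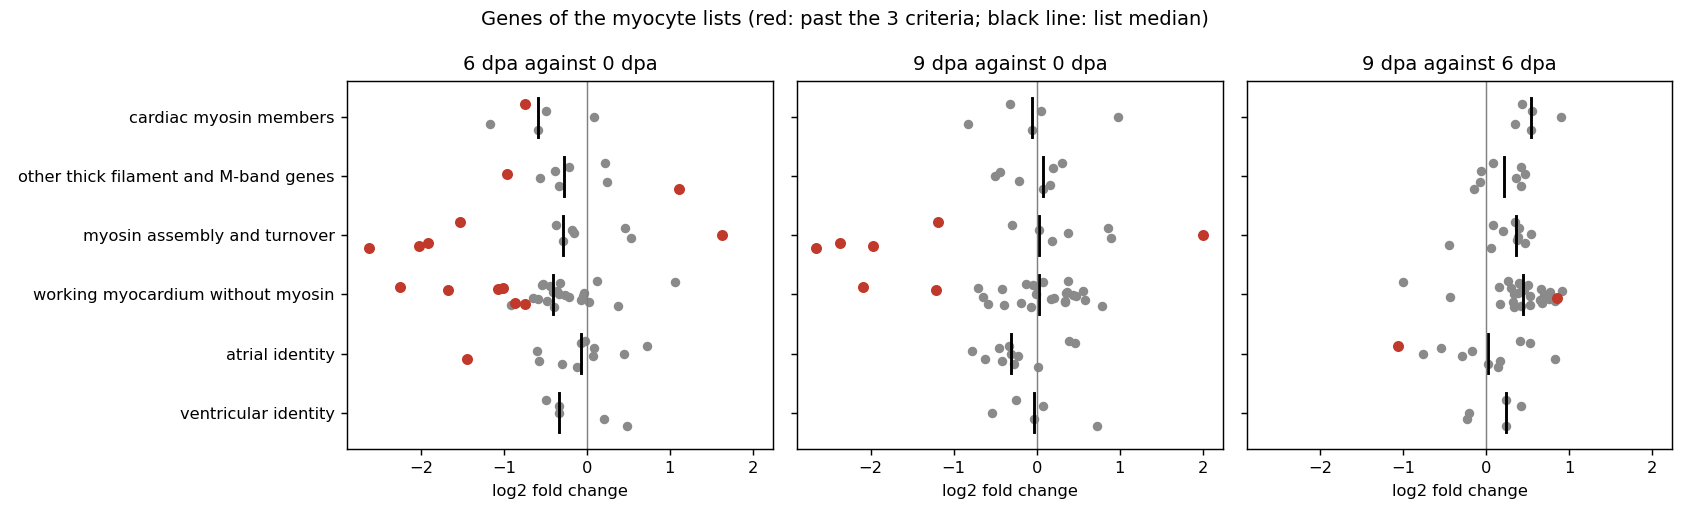
Log2 fold change on log2(FPKM + 1) (x axis) of the tested genes of 6 lists (rows) in the 3 comparisons, with red points past the 3 criteria, grey points not past them and a black line at the list's median. At 6 dpa against 0 dpa the medians of the myosin genes and the working myocardium are -0.59 and -0.41, and at 9 dpa against 6 dpa they are 0.54 and 0.44.

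Genes of the atrial and ventricular identity lists, which were not checked for being confined to 1 chamber, were mostly not called. Of 11 atrial identity genes tested, 1 fell at 6 dpa against 0 dpa, 0 were called at 9 dpa against 0 dpa and 1 fell at 9 dpa against 6 dpa, with medians of -0.07, -0.31 and 0.02. The gene that fell at 6 dpa was nppb, a natriuretic peptide, which had 724 and 1560.5 FPKM at 0 dpa, 436 and 349.9 FPKM at 6 dpa, and 890.5 and 539 FPKM at 9 dpa (log2 fold change -1.44, limma adjusted p = 0.180), and it was not called without replicate 2 of 6 dpa (-1.28). The gene that fell at 9 dpa against 6 dpa was the transcription factor tbx2b, at 3.77 against 8.98 FPKM (log2 fold change -1.06), which was called in 4 of 6 fits with 1 library left out. Without replicate 1 of 0 dpa 1 atrial gene rose and 1 fell at 6 dpa and 2 rose and 1 fell at 9 dpa, and without replicate 2 of 0 dpa 2 fell at each. The atrial peptide nppa had 3329 and 4482 FPKM at 0 dpa, 3616 and 1848 FPKM at 6 dpa, and 4289.9 and 1955 FPKM at 9 dpa, and its time points overlapped. Of 5 ventricular identity genes tested, mybpc3 among them, 0 were called in each comparison, with medians of -0.33, -0.03 and 0.24. Of these 5, without replicate 1 of 0 dpa, 2 rose at 6 dpa and 3 at 9 dpa, and without replicate 2 of 0 dpa 3 fell at 6 dpa and 2 at 9 dpa. The cardiac transcription factor nkx2.5 was at 137 to 240.3 FPKM, with log2 fold changes of -0.49 and -0.24 at 6 and 9 dpa against 0 dpa. Whether the tissue pieces held unequal amounts of atrium was not tested.

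Heavy chains of skeletal muscle were at or near 0, with at most 0.102 FPKM for myhz1.1, 1.09 FPKM for myhz2 and 2.41 FPKM for smyhc2. The most abundant genes of the skeletal list were the actin acta1a, with 207.9 FPKM at 6 dpa and 231 FPKM at 0 dpa (log2 fold change -0.36), and the muscle creatine kinase ckmb, with 19.0 against 28.5 FPKM (-0.33), and neither was called in any comparison. Of the 10 genes tested at 6 dpa against 0 dpa, 7 were called higher, but 6 of the 10 reached 3 FPKM only at 6 dpa and could be tested only because they were high there, so the count is a description. Among the 4 genes that reached it at both time points 2 rose, the fast muscle light chain mylz3 (21.6 against 3.28 FPKM, log2 fold change 2.78) and the parvalbumin pvalb1, a calcium buffer (21.1 against 3.29 FPKM, 2.24). At 9 dpa 0 of 6 were called against 0 dpa. Against 6 dpa 2 of 10 were called lower, the fast muscle light chain mylpfa (6.23 against 23.2 FPKM) and the parvalbumin pvalb2 (7.01 against 23.4 FPKM), and 0 of 7 without replicate 2 of 6 dpa.

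Genes of other cell types differed in the same libraries. Of 9 smooth muscle and non-muscle myosin genes, 2 rose and 0 fell at 6 dpa against 0 dpa, namely the non-muscle heavy chain myh9a (10.5 against 3.75 FPKM), called in 6 of 6 fits with 1 library left out, and the light chain myl12.2 (39.9 against 24.6 FPKM), called in 1 of 6. At 9 dpa 1 of 9 rose against 0 dpa, myl12.2, called in 3 of 6 such fits, and 1 of 9, myh9a, fell against 6 dpa, called in 2 of 6. The most abundant of these genes, the regulatory light chains myl9a and myl9b, had log2 fold changes of -0.32 and -0.74 at 6 dpa against 0 dpa and were not called in any comparison.

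Epicardium and fibroblast genes rose in 13 of 16 cases at 6 dpa and in 10 of 16 at 9 dpa against 0 dpa, with medians of 1.48 and 1.42, and 0 of 16 were called at 9 dpa against 6 dpa. At 6 dpa 6 of 16 rose without replicate 1 of 6 dpa, and without replicate 2 of 9 dpa 5 of 16 rose at 9 dpa. The most abundant were the glutathione transferase gstm.3, called higher at 6 dpa against 0 dpa (log2 fold change 1.69, called in 3 of 6 fits with 1 library left out), and the matrix protein sparc, called higher at 6 and 9 dpa against 0 dpa (1.05 and 1.08, called in 2 and 3 of 6 such fits).

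Of 14 epidermis genes tested at 6 dpa against 0 dpa, 6 were called higher, but 9 of the 14 reached 3 FPKM only at 6 dpa, all 6 called genes among them, and 0 of the 5 that reached it at both time points were called. Replicate 2 of 6 dpa held most of this signal: the keratin krt5 was at 12.04 and 187 FPKM in the 6 dpa libraries, against 3.30 and 1.73 FPKM in the 0 dpa libraries, and without replicate 2 of 6 dpa 1 of 7 genes was called. The most abundant, icn and the keratin krt8, had log2 fold changes of 0.01 and 0.40. At 9 dpa against 6 dpa cldni, epcam and anxa1c were called lower. However, 7 of the 14 genes tested reached 3 FPKM only at 6 dpa, all 3 called genes among them. Of the 7 that reached it at both time points, 0 were called. The median log2 fold change was -1.68, and -0.07 over the 8 genes tested without replicate 2 of 6 dpa.

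Endothelial genes fell in 6 of 18 cases at 6 dpa and 2 of 17 at 9 dpa against 0 dpa, and 2 of 18 rose at 9 dpa against 6 dpa. The pair that fell at 9 dpa was kdr and plvapa (log2 fold changes -0.82 and -0.85, called in 2 and 4 of 6 fits with 1 library left out), and the pair that rose against 6 dpa was the receptor flt1 (1.32, 4 of 6) and egfl7 (0.71, 3 of 6). The most abundant, the transcription factor fli1a, was not called in any comparison. Without replicate 1 of 0 dpa 3 of 18 fell at 6 dpa and 0 of 17 at 9 dpa, without replicate 2 of 0 dpa 10 and 4 fell, and without replicate 1 of 6 dpa 2 of 18 fell and 2 rose at 6 dpa.

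Red blood cell genes rose in 9 of 19 cases and fell in 4 at 6 dpa against 0 dpa, rose in 8 of 20 and fell in 2 at 9 dpa against 0 dpa, and rose in 2 of 18 at 9 dpa against 6 dpa. Of these calls, hbaa1 and ba1 among those that fell at 6 dpa, ba1 among those that fell at 9 dpa and hbaa1 among those that rose against 6 dpa rest on values listed at 0. The other gene that rose against 6 dpa was the globin hbae1, at 342 and 21.98 FPKM in the 9 dpa libraries, against 7.47 and 10.9 FPKM in the 6 dpa libraries. The globin hbba2 was not called in any comparison, whereas the haem synthesis enzyme alas2 rose at 6 dpa (1287 against 351 FPKM) and 9 dpa (1201.5 against 351 FPKM).

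Of the macrophage and neutrophil genes 1 of 24 rose at 6 dpa, 0 of 23 were called at 9 dpa against 0 dpa and 1 of 23 fell at 9 dpa against 6 dpa. These counts turned on the library of 0 dpa: without replicate 1, 11 of 24 fell at 6 dpa and 21 of 23 at 9 dpa, and without replicate 2, 16 of 23 rose at 6 dpa and 10 of 22 at 9 dpa. The gene that rose was the neutrophil peroxidase mpx (4.41 against 1.97 FPKM), called in 0 of 6 fits with 1 library left out, and the gene that fell was mfap4 (26.7 against 107 FPKM), called in 3 of 6, although 13 of 23 fell at 9 dpa against 6 dpa when either replicate of 0 dpa was left out. Mpx could be tested at 6 dpa against 0 dpa only because it was high at 6 dpa. Of the 21 genes that averaged at least 3 FPKM at both of these time points, 0 were called. The most abundant genes of the list, cd74a and cd74b, partners of MHC class II, were not called in any comparison. The part of these cell types in the myosin differences was not tested, apart from the scaling to muscle and the ratios within a library given above.

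**Figure D5:**
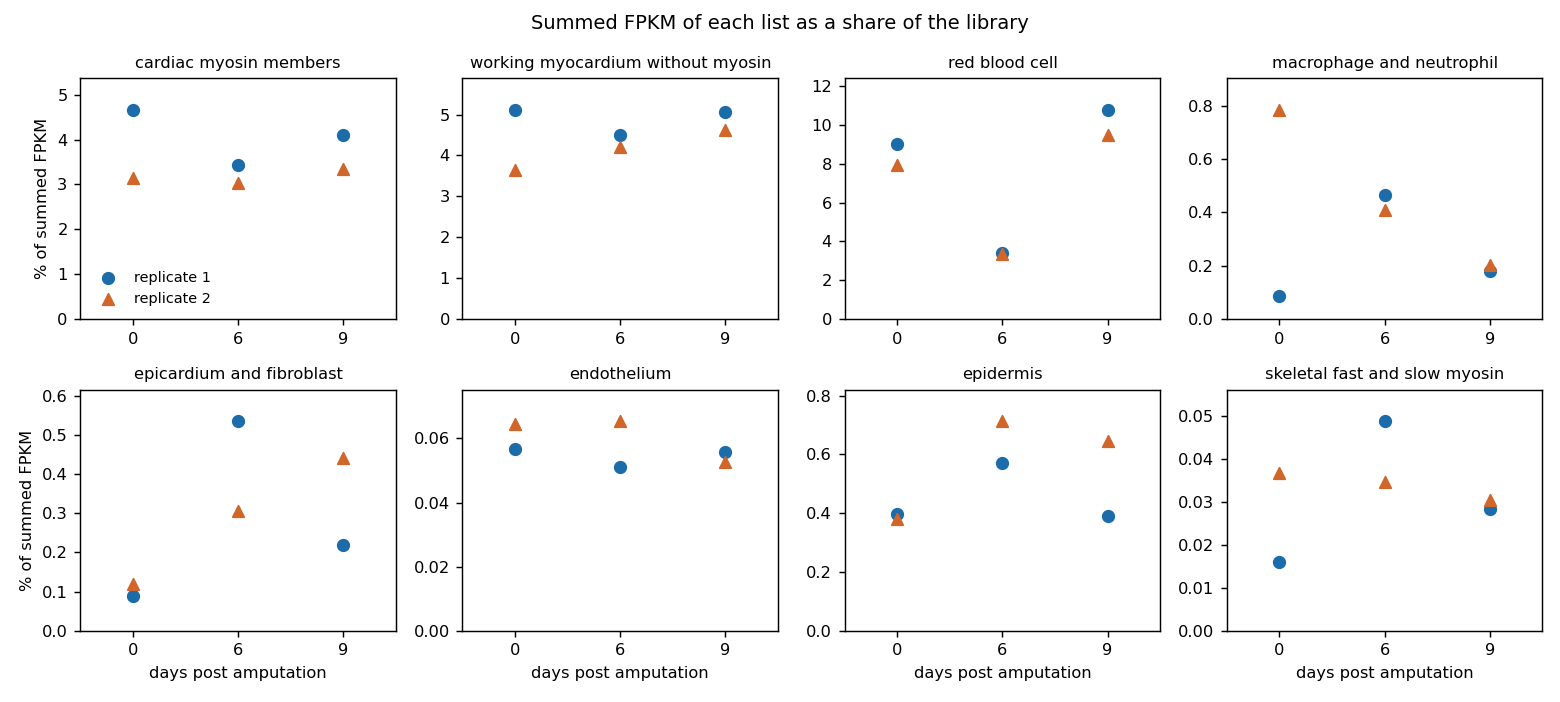
Summed FPKM of 8 gene lists as a percentage of the library's summed FPKM (y axis, linear from 0, a separate scale for each list) at 0, 6 and 9 dpa (x axis), with circles for replicate 1 and triangles for replicate 2. The myosin genes take 3.03 to 4.66% of a library, and the macrophage and neutrophil share at 0 dpa is 0.0885% in replicate 1 and 0.784% in replicate 2. The red blood cell share includes hbaa1 and ba1, whose values listed at 0 can be failed estimates, so no change is read from that panel.

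Across the 6 libraries the myosin genes differed in which of them moved together, given as Pearson's r of log2(FPKM + 1) without a test, since the libraries share time points and scaling. The light chains followed myh7l, with r of 0.87 for myl7 and 0.89 for cmlc1, and each other with 0.77. Myh6 had 0.74 with myl7, 0.80 with cmlc1 and 0.66 with myh7l. Myh7 had 0.67 with cmlc1 and 0.66 with myh7l, but 0.25 with myl7 and 0.25 with myh6.

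Among 9227 fitted genes above 0 in every library, the 3 most like each myosin gene by r were picked. For myl7 they were hsd11b2 (0.998), an enzyme that inactivates glucocorticoids, tfb2m (0.996), a mitochondrial transcription factor, and appa (0.995). For cmlc1 they were the calpain capn1a (0.997), bnip3lb (0.993) and poldip2 (0.993). For myh7l all 3 belong to the mitochondrial respiratory machinery: atp5f1d (0.998), a subunit of ATP synthase, and the complex I subunits ndufa10 (0.994) and ndufb9 (0.990). For myh6 they were tmem184ba (0.998), ormdl1 (0.995) and the splicing factor txnl4a (0.993). For myh7 they were the kinesin motor kif3a (0.990), leng9 (0.986) and gpia (0.982), an enzyme of glycolysis. With 6 points and 9227 genes searched, the names only record whose values ran most nearly alongside.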

How the data were processed

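RNA from regenerating zebrafish heart tissue was sequenced in 6 libraries, 2 at each of 0, 6 and 9 dpa. The authors aligned reads to danRer10 with STAR and deposited FPKM made with Cufflinks for 15268 genes, of which 1520 were at 0 in every library. Tool versions, annotation, strand handling and the treatment of multi-mapped reads are not given in the sources used here, and neither is whether duplicate removal with SAMtools preceded the FPKM. The study's test needs read counts, so limma 3.58.1 in R 4.3.3 was used in its place on log2(FPKM + 1), with a trended empirical Bayes prior, time point as the only term and all 6 libraries in 1 fit. The 9363 genes whose mean reached 3 FPKM at any time point were fitted (3 residual degrees of freedom, prior median 4.66). The procedure was also run on simulated data, where recovery was required only for changes larger than those of the myosin genes. Its recovery of smaller changes is not given here. FPKM carries no read count, so the depth and counting error are unknown.

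The members and all gene lists were chosen with earlier results of these data known. Named were all members, the 3 genes most like each, and from every list the 1 or 2 most abundant genes and those called in a comparison where no more than 4 were, in either direction together; other names are given for their values. Symbols were matched to RefSeq (GRCz12tu) names, and no coordinates are given because danRer10 differs. Ratios were compared with an exact two-sided permutation test in Python 3.11.15 with scipy 1.17.1. The alternatives were a pseudocount of 0.1, no FPKM filter, a minimum of 1 FPKM, median-ratio scaling, rescaling without 11 haemoglobin genes, scaling to the working myocardium, fits of the compared groups only, a replicate block, no trend and leaving out each library. Rescaling without haemoglobin set every library to the same summed FPKM of the remaining genes. ChIP and PAC2 cell line samples were not analysed here.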

Additional observations from a re-analysis of the deposited data

How the results depend on the processing

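At 6 dpa against 0 dpa the count of called myosin genes was 1 (myl7). It was also 1 with a pseudocount of 0.1, a minimum of 1 FPKM and the compared groups only, but the gene was then myh6 and not myl7. It was 0 without an FPKM filter, when rescaled without haemoglobin, when scaled to the working myocardium, without a trend, and with a replicate block plus working myocardium scaling (chosen after seeing the data), and 2 (myl7 and myh6) with median-ratio scaling. At 9 dpa against 0 dpa it was 0, and 1 (myh7) with a pseudocount of 0.1, a minimum of 1 FPKM, median-ratio scaling, rescaling without haemoglobin, working myocardium scaling and the compared groups only. At 9 dpa against 6 dpa it was 0, and 1 (myh7) with median-ratio scaling and the compared groups only. With 1 library left out the counts were 0 to 4, 0 to 1 and 0 to 1 in the 3 comparisons, and the 4 came without replicate 2 of 0 dpa. Where given, counts over the other lists and calls of their named genes without a library (chosen after seeing the data) stand beside those of all libraries. Counts without a library that are not given can differ too. The lone library of such a group is assumed to vary like the others.

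The replicate block gave counts of 1 (myh6 in place of myl7), 2 (myh6 and myh7, also with muscle scaling) and 1 (myh7). The gaps between replicates 1 and 2 were nearly uncorrelated between time points, with r of -0.08, 0.09 and 0.01 over 9363 genes. Such an r cannot see a shift shared by all genes. Of all fitted genes, 66.9, 63.8 and 65.9% were higher in replicate 1 at 0, 6 and 9 dpa. The cmlc1 to myl7 ratio also split by replicate number, so whether same-numbered libraries were paired is not settled.

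There were 240 values, 15 log2 fold changes under 16 alternatives. Of these, 180 kept direction and side of the threshold, 14 lost and 30 gained a call, and 16 changed sign. All 14 losses fell on myl7 at 6 dpa against 0 dpa, the only call with FPKM as deposited. That call was thus lost under 14 of 16 alternatives, and no other value could lose one. With 1 library left out, values ran from -1.37 to 0.19 for cmlc1 and -0.34 to 0.50 for myh7 (6 against 0 dpa), -0.73 to 0.084 for myl7, -0.83 to 0.73 for cmlc1 and -0.35 to 0.45 for myh7l (9 against 0 dpa), and -0.31 to 0.99 for myh6 (9 against 6 dpa). For cmlc1 and myl7 the upper ends came without replicate 1 of 0 dpa, and for myh7 and myh7l the lower ends came without replicate 2 of 0 dpa; cmlc1 at 9 dpa was also at 0.40 without replicate 2 of 9 dpa. Myh7 was at -0.31 without replicate 1 of 6 dpa and myh6 at -0.016 without replicate 2 of 6 dpa. Cmlc1 at 9 dpa was at 0.10 when rescaled without haemoglobin. Muscle scaling, with or without the block, gave 0.00386 for myh7l (6 against 0 dpa), and -0.11 for myl7 and -0.19 for myh6 (9 against 6 dpa). The cause of these changes was not tested. Over all genes, calls in the 3 comparisons were 1426, 1131 and 312, with ranges over the alternatives of 985 to 2300, 586 to 1871 and 168 to 1150, and by the adjusted p-value 66, 33 and 3, with 7 to 208, 2 to 198 and 2 to 125. Rescaled without haemoglobin, the 6 dpa calls against 0 dpa were 1750 higher and 343 lower. That setting also equalised the summed FPKM of the libraries, so the shift cannot be put down to haemoglobin alone. The differences in the myh6 to myh7 ratio kept their sign under every alternative run, which is no separate evidence. Leaving out 1 library could not reverse the sign of time points that do not overlap. The replicate block leaves the mean difference unchanged. The size could move, and the difference between 9 and 6 dpa was -0.90 to -0.22 with 1 library left out.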
